A study of Homo sapiens with 6 samples.

Results

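Purine and pyrimidine metabolism enzymes are 57 of the 58302 genes in the expression table, taken by gene name and grouped by their role in synthesis, salvage, phosphate transfer, breakdown or nucleotide hydrolysis. The cells were MDA-MB-231-DR, which resist doxorubicin and descend from MDA-MB-231, an established triple-negative human breast cancer cell line. RNA was sequenced from 3 libraries of resistant cells without CYT (control) and 3 libraries of the same cells treated with Cyperotundone (CYT), a bioactive component of sedge. Resistance to doxorubicin is carried by both groups, and the model is a single cell line. Per the methods the resistant line was kept in medium with a low concentration of doxorubicin. Whether doxorubicin was present in the sequenced cells, and the dose and time of CYT there, were not given in the sources used here. The methods speak of independent experiments for the study's data in general, and nothing in the labels says that the sequenced replicates came from separate cultures, so the p-values measure the spread between these libraries, which may be technical.

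Cells build pyrimidine and purine nucleotides from small precursors (de novo synthesis) or recover them from ready-made nucleosides and bases (salvage). De novo pyrimidine synthesis runs through CAD, DHODH and UMPS to UMP, and CTP synthases then make CTP. De novo purine synthesis starts from phosphoribosyl pyrophosphate, builds IMP on it and branches to AMP and GMP. Uridine-cytidine kinases return uridine and cytidine to the nucleotide pool, phosphorylases and deaminases break nucleosides down, and 5′-nucleotidases remove the phosphate. Dividing tumour cells are known for a high demand on the de novo routes.

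Each library held between 13056270 and 17770102 counts, and 15572 genes passed the filter on low counts. Values are given as CPM (counts scaled to library size by the TMM method), which are relative to all RNA counted, so fewer transcripts of a gene per cell and a different amount of other RNA cannot be told apart. A gene was called when the adjusted p of edgeR's quasi-likelihood test (Benjamini-Hochberg over all tested genes) was under 0.05. Correlations of log2 CPM between replicates ran from 0.904 to 0.971, with the lowest for CYT 2, whose departures from the other CYT libraries followed GC content. Among the markers of the line, VIM (mesenchymal vimentin), CD44, AXL, CAV1 and ANXA1 were present in all libraries, and VIM, at 2459 ± 253 CPM in control and 996 ± 109 in CYT (SD, n = 3), was called lower. The summed level of the 5 was 3911 to 4340 CPM in control and 1822 to 2319 CPM in CYT, with AXL called lower as well. Of 8 luminal markers, 4 were tested and 1, KRT19, was called lower, with the list's summed level at 346 to 579 CPM in control and 122 to 171 CPM in CYT. ESR1, PGR, TFF1 and CDH1 stood at no more than 16 counts in any library. The part of these shifts in the results on the enzymes was not tested.

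Of the 57 enzymes, 56 were tested. After CYT, 15 were called lower and 3 higher, and 38 were not called. The 15 are 26.8% of the tested enzymes, against 12.9% of all tested genes called lower. The 3 are 5.36%, against 15.7% of all tested genes called higher. Every CYT library lay below every control library for 21 enzymes and above for 6, and the same held for 22.7% and 23.4% of all tested genes. The median log2 fold change was -0.40 over the enzymes and 0.0064 over all tested genes. The remaining enzyme, CDA (cytidine deaminase), had 11, 3 and 7 counts in control and 11, 13 and 2 in CYT and was too low to test. Leaving out CYT 2 gave 19 lower and 6 higher, where 17.0% and 18.6% of all tested genes were called, leaving out control 1 gave 12 and 1 (7.41% and 10.9% of all tested genes), and leaving out control 3 gave 11 and 1 (7.36% and 10.3%). With the replicate number as a block (the paired fit), 18 were called lower and 5 higher, beside 19.8% and 20.0% of all tested genes.

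**Figure D1:**
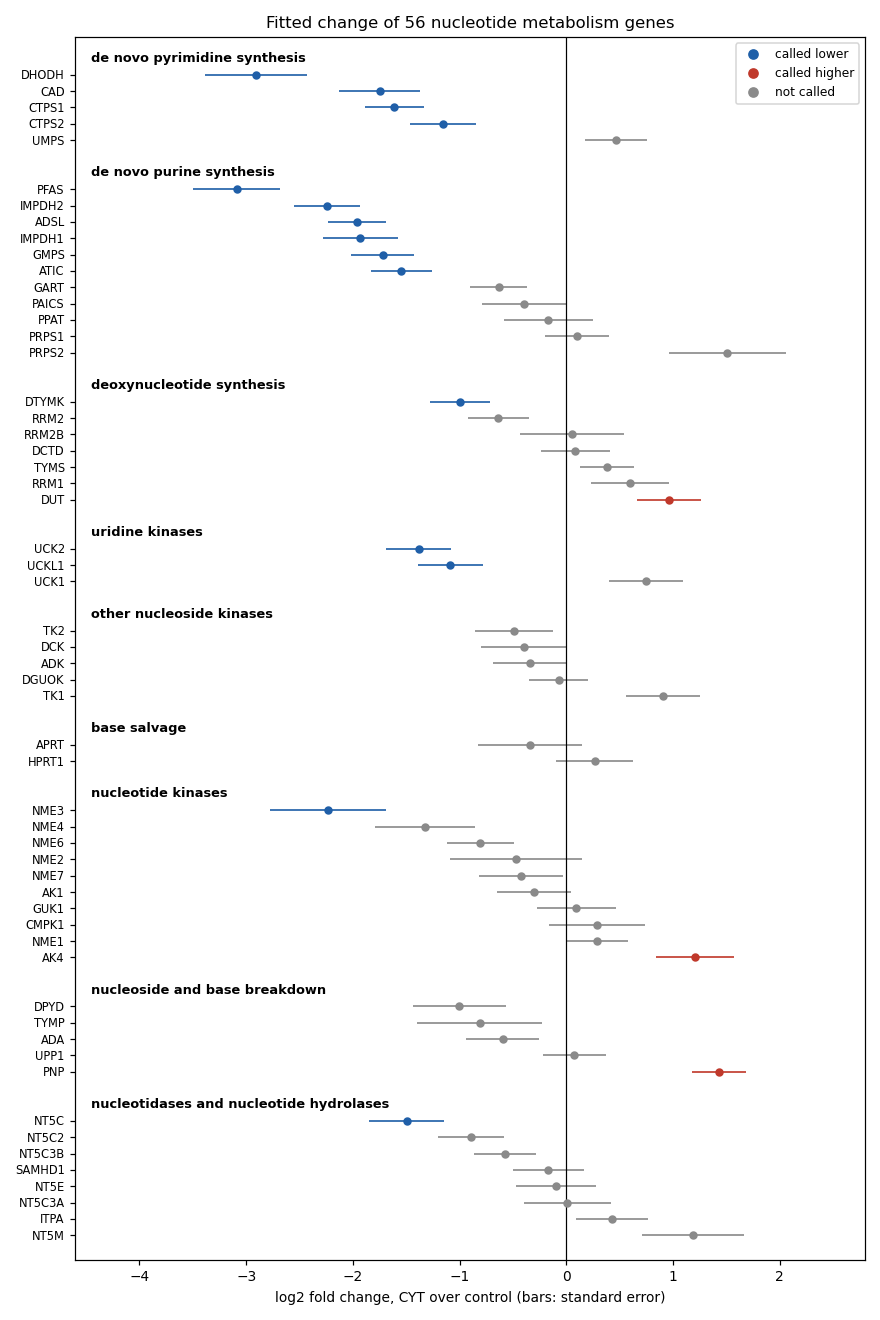
Fitted log2 fold change of CYT over control for the 56 tested enzymes (horizontal axis), grouped by role, with bars for the standard error of the fit (3 libraries per group) and colours for the edgeR call. The 15 genes called lower lie mostly in the 2 de novo routes, with PFAS at -3.09 and DHODH at -2.91, and PNP at 1.43 has the smallest standard error of the 3 genes called higher.

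De novo pyrimidine synthesis was lower after CYT at 4 of its 5 genes (80.0%, against 12.9% of all tested genes), with a median log2 fold change of -1.61. The summed level of the 5 genes was 486, 340 and 379 CPM in the control libraries and 199, 170 and 198 CPM in the CYT libraries. CAD, the multifunctional enzyme that opens the route (chr2:27217390-27243943), measured 281, 151 and 168 CPM in control and 62.4, 37.3 and 78.4 CPM in CYT. All 3 CYT libraries were below all controls, and the fitted log2 change was -1.75 ± 0.38 (SE, adjusted p = 0.00858 by edgeR). DHODH, the mitochondrial enzyme that oxidizes dihydroorotate (chr16:72008588-72027664), measured 33.1, 12.1 and 15.4 CPM in control and 2.26, 2.14 and 3.66 CPM in CYT. Its log2 change of -2.91 ± 0.48 (adjusted p = 0.00248, edgeR) was the largest in the route although control 1 stood well above the other controls.

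CTPS1, the main CTP synthase, fell from 111, 98.2 and 104 CPM to 37.6, 34.2 and 30.7 CPM (log2 change -1.61 ± 0.28, adjusted p = 0.00294 by edgeR). Replicates of CTPS1 lay close together in both groups. CTPS2, its X-linked relative, fell from 13.6, 14.5 and 18.4 CPM to 6.98, 7.26 and 6.68 CPM (log2 change -1.15 ± 0.31, adjusted p = 0.0213 by edgeR). The CTPS2 call was lost without control 3, CYT 1 or CYT 3, where the highest adjusted p over all alternatives was 0.0856. UMPS, which makes UMP from orotate and sits between DHODH and the CTP synthases, did not go with the other 4 genes: it measured 48.4, 64.5 and 73.1 CPM in control and 89.4, 89.5 and 78.0 CPM in CYT, with a log2 change of 0.47 ± 0.29 (adjusted p = 0.253, edgeR).

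De novo purine synthesis was lower at 6 of its 11 genes (54.5%, against 12.9% of all tested genes), with a median log2 fold change of -1.55. The count of those called higher was 0 (1 at an unadjusted p under 0.05, 1 by DESeq2 and 0 by limma), where 15.7% of all tested genes were called higher. The summed level of the 11 genes was 2065, 1914 and 1883 CPM in control and 832, 1119 and 777 CPM in CYT. PFAS, which carries out the fourth step to IMP (chr17:8247618-8270491), had the largest change of all the enzymes. It measured 86.6, 57.6 and 45.4 CPM in control and 8.89, 4.48 and 8.90 CPM in CYT, a log2 change of -3.09 ± 0.41 (adjusted p = 0.00112, edgeR). No control library came near the CYT range.

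Later steps of the route fell as well. ADSL, which acts on the way to both IMP and AMP, measured 222, 224 and 217 CPM in control and 62.1, 57.4 and 50.4 CPM in CYT (log2 change -1.96 ± 0.27, adjusted p = 0.00131 by edgeR). Its control libraries lay close together, with an SD of 3.67 CPM around 221. ATIC, the bifunctional enzyme that completes IMP, measured 195, 146 and 200 CPM in control and 68.1, 58.9 and 58.2 CPM in CYT (log2 change -1.55 ± 0.28, adjusted p = 0.00393 by edgeR).

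The guanine branch fell at every step. IMPDH2, the main IMP dehydrogenase of dividing cells and the rate-limiting step to GMP (chr3:49024325-49029408), measured 725, 464 and 490 CPM in control and 127, 96.4 and 131 CPM in CYT, a log2 change of -2.25 ± 0.31 (adjusted p = 0.00129, edgeR). Its relative IMPDH1 measured 164, 123 and 129 CPM in control and 47.5, 22.4 and 39.0 CPM in CYT (log2 change -1.93 ± 0.35, adjusted p = 0.00379 by edgeR). Both IMP dehydrogenases therefore moved the same way. GMPS, which turns XMP into GMP, measured 79.1, 88.8 and 90.7 CPM in control and 30.5, 27.1 and 20.7 CPM in CYT (log2 change -1.72 ± 0.29, adjusted p = 0.0029 by edgeR).

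Several called genes overlap a neighbour, and the strand setting of the counting was not given, so reads in the shared bases cannot be assigned. PFAS overlaps CTC1 on the opposite strand over 478 bases, and CTC1 changed by -1.03 ± 0.33 on the log2 scale (adjusted p = 0.0445, edgeR). UCK2, described with the uridine kinases, overlaps TMCO1 over 225 bases, and TMCO1 had a log2 change of 1.03 ± 0.35, opposite in sign to that of UCK2. NT5C overlaps ARMC7 over 41 bases and NME3 overlaps MAPK8IP3 over 32 bases, where ARMC7 changed by -1.36 ± 0.40 (adjusted p = 0.0295, edgeR) and MAPK8IP3 had a log2 change of -0.01 ± 0.39. ADSL lies within a stretch shared on the same strand with SGSM3 and the readthrough-like gene AL022238.4, whose counts over the 6 libraries came to 33.0% and 10.5% of those of ADSL.

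The other 5 genes of the route were not called. PRPS1, which makes phosphoribosyl pyrophosphate, measured 159, 184 and 140 CPM in control and 124, 218 and 175 CPM in CYT (log2 change 0.10 ± 0.30). PPAT, the committed step of the route, had a log2 change of -0.17 ± 0.42. GART and PAICS, which each carry out more than a single step, had log2 changes of -0.63 ± 0.27 and -0.39 ± 0.39, with adjusted p-values of 0.105 and 0.488 by edgeR. GART nevertheless did not overlap between groups, at 188, 241 and 225 CPM in control and 133, 155 and 135 CPM in CYT. PRPS2 measured 16.7, 20.2 and 17.3 CPM in control and 24.9, 105 and 24.8 CPM in CYT, so its log2 change of 1.51 ± 0.55 (adjusted p = 0.0657, edgeR) rested largely on CYT 2. Without CYT 2 the PRPS2 change was 0.45 (adjusted p = 0.201, edgeR), while with the replicate block it was called at 1.15 (adjusted p = 0.0408, edgeR).

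PPAT and PAICS are neighbours on chromosome 4 that start back to back, with 125 bases between their starts in the deposited table. The sequence of that stretch is shown because a pair of enzymes of the same route starts from it, and neither gene was called. PFAS and ADSL, whose steps lie before and after those of PAICS, were called. GART, which carries out the step directly before PAICS, was not called either and does not start from this stretch. A link between the stretch and the calls was not tested. The RefSeq start of PAICS lay 25234 bases from its start in the deposited table. It is printed on the strand of PPAT from RefSeq (GRCh38.p14, chr4:56435616-56435740, minus strand), with no part in capitals, and 76.0% of its bases are G or C.
PPAT to PAICS interval: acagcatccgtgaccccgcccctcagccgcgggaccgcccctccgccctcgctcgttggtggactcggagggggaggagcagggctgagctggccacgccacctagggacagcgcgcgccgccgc

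**Figure D2:**
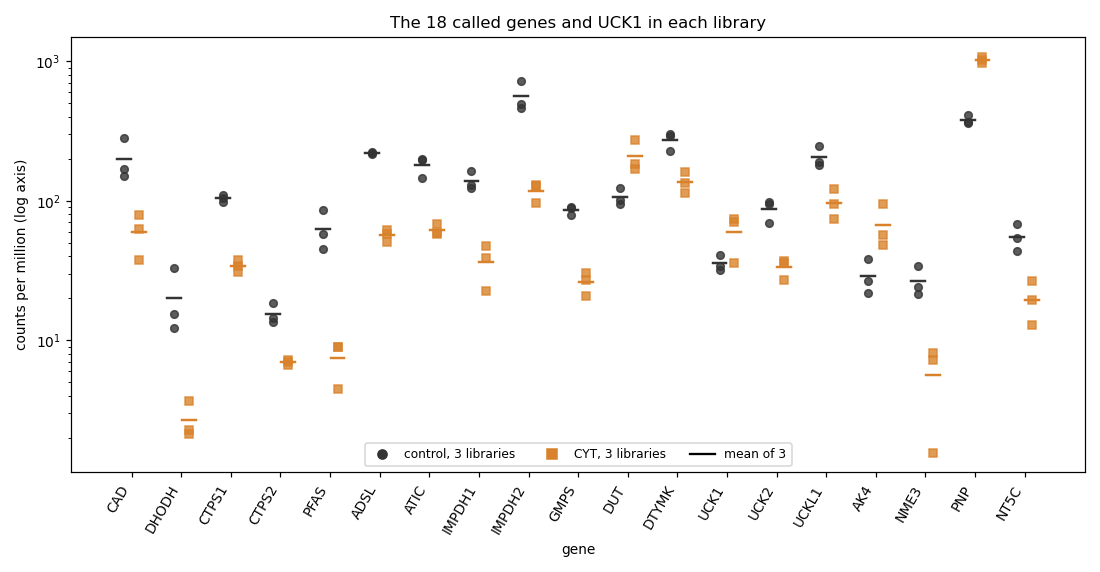
CPM on a log axis for the 18 called enzymes and UCK1 in each of the 3 control (circles) and 3 CYT (squares) libraries, with a line at each group mean. The groups are apart for all 18 called genes, and UCK1 in CYT 2, at 35.6 CPM, lies among its controls.

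Deoxynucleotide synthesis, which supplies the precursors of DNA, had 1 gene called lower and 1 higher of 7 (14.3% each), shares near those of all tested genes, so these counts are no result about the group. DUT, the dUTPase that keeps uracil out of DNA, measured 94.1, 124 and 102 CPM in control and 168, 272 and 184 CPM in CYT, and rose by a log2 change of 0.96 ± 0.30 (adjusted p = 0.0397, edgeR). This call held without CYT 2 (0.71, adjusted p = 0.0493 by edgeR) and was lost without any other single library and with no filter on low counts, at adjusted p-values of up to 0.143. DTYMK, the thymidylate kinase, measured 289, 299 and 228 CPM in control and 134, 115 and 161 CPM in CYT (log2 change -0.998 ± 0.281, adjusted p = 0.0259 by edgeR). Its call too was lost without any single library except CYT 2, with adjusted p-values of up to 0.0897.

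The ribonucleotide reductase subunits were not called. RRM1, the catalytic subunit, had a log2 change of 0.59 ± 0.36, RRM2, its S-phase partner, one of -0.64 ± 0.29, and RRM2B, the p53-induced partner, one of 0.05 ± 0.49. TYMS, thymidylate synthase and the target of fluoropyrimidine drugs, measured 347, 328 and 353 CPM in control and 409, 488 and 440 CPM in CYT (0.38 ± 0.25). Although its groups did not overlap, TYMS had an adjusted p of 0.292 by edgeR. DCTD, which deaminates dCMP, had a log2 change of 0.08 ± 0.32.

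Of the 3 uridine kinases, which phosphorylate uridine and cytidine, UCK2 and UCKL1 fell and UCK1 was not called. The share called lower was 66.7% of these 3 genes, against 12.9% of all tested genes. UCK2 (chr1:165827531-165911618), the family member known for high levels in tumours, measured 94.7, 68.7 and 97.3 CPM in control and 37.2, 26.8 and 35.8 CPM in CYT. The change of UCK2 was -1.38 ± 0.30 on the log2 scale (adjusted p = 0.00851, edgeR), and it was called in all 15 alternatives. UCKL1 (chr20:63939829-63956415), a relative with a uridine kinase domain, measured 247, 180 and 190 CPM in control and 94.8, 74.2 and 121 CPM in CYT. With a log2 change of -1.09 ± 0.30 (adjusted p = 0.0252, edgeR), UCKL1 was called in the full fit but not without control 1, control 3 or CYT 1, where the adjusted p was at most 0.0905.

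UCK1 (chr9:131523801-131531268), the more widely expressed kinase, measured 32.1, 34.0 and 41.1 CPM in control and 73.7, 35.6 and 70.1 CPM in CYT. CYT 1 and CYT 3 lay above all controls and CYT 2 lay among them. The log2 change of 0.74 ± 0.34 was not called (adjusted p = 0.135, edgeR), and without CYT 2 it was called at 1.0 (adjusted p = 0.0119, edgeR). On the deposited FPKM scale, the levels in control were 6.14, 7.40 and 8.37 for UCK1 and 9.95, 8.21 and 10.9 for UCK2. UCKL1 was highest, at 50.5, 41.8 and 41.3, and the ranges of UCK1 and UCK2 overlapped on that scale. The length that count and FPKM imply exceeds the whole locus for some enzymes, such as NT5C and NME3, so FPKM does not settle the order of genes. In CPM the control means were 35.7 for UCK1 and 86.9 for UCK2, with mean transcript lengths of 1467 and 1716 bases. In CYT the FPKM levels were 15.3, 7.89 and 13.5 for UCK1, 4.22, 3.26 and 3.80 for UCK2 and 20.9, 17.6 and 25.0 for UCKL1. By FPKM the order was then UCKL1, UCK1, UCK2 with no overlap between any of the neighbours.

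The other 7 salvage enzymes were not called by edgeR, where 12.9% of all tested genes were called lower and 15.7% higher. At an unadjusted p under 0.05 there was 1 higher and 0 lower, and by DESeq2 likewise 1 higher and 0 lower, in both cases TK1, while limma called 0. TK1, the cytosolic thymidine kinase of S phase, measured 792, 592 and 516 CPM in control and 1203, 722 and 1643 CPM in CYT, where only CYT 2 lay among the controls. The log2 change of TK1 was 0.91 ± 0.35 (adjusted p = 0.0787, edgeR) and 1.16 without CYT 2 (adjusted p = 0.0117, edgeR). Its mitochondrial counterpart TK2 measured 27.1, 23.6 and 41.6 CPM in control and 28.0, 14.4 and 23.4 CPM in CYT (log2 change -0.49 ± 0.36). DCK, the kinase that activates deoxycytidine and its drug analogues, had one of -0.40 ± 0.40 over all libraries, and without CYT 2 it was called at -0.92 (adjusted p = 0.0449, edgeR). The changes of DGUOK (mitochondrial deoxyguanosine kinase) and ADK (adenosine kinase) were -0.07 ± 0.27 and -0.34 ± 0.35. The base salvage enzymes HPRT1 (hypoxanthine and guanine) and APRT (adenine) had log2 changes of 0.27 ± 0.36 and -0.34 ± 0.49.

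Nucleotide kinases, which pass phosphate from one nucleotide to the next, had 1 gene called lower and 1 higher of 10 (10% each). Neither share is above that of all tested genes, so the counts are no result about the group. NME3, a nucleoside diphosphate kinase, measured 21.6, 24.2 and 33.9 CPM in control and 7.26, 1.57 and 8.11 CPM in CYT (log2 change -2.23 ± 0.55, adjusted p = 0.0141 by edgeR). CYT 2 was the lowest, and the change was -1.80 without it (adjusted p = 0.00327, edgeR). The NME3 call was lost without control 3 (adjusted p = 0.0504, edgeR). AK4, the mitochondrial adenylate kinase, measured 26.5, 38.4 and 21.6 CPM in control and 56.4, 95.2 and 48.1 CPM in CYT, a log2 rise of 1.21 ± 0.37 (adjusted p = 0.0356, edgeR). It was called in 9 of the 15 alternatives, and leaving out CYT 2 gave 0.85 (adjusted p = 0.0526, edgeR), with the call also lost without control 1, control 3 or CYT 1 and in both limma fits.

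Near-identical copies can split the reads of AK4. Its 6 annotated pseudogenes held 1041 counts, or 24.8% of those of AK4. The sum of AK4 and these copies was 33.5, 46.2 and 27.8 CPM in control and 73.6, 116 and 60.6 CPM in CYT, a log2 ratio of means of 1.22. The groups of this sum were therefore as far apart as those of AK4 alone.

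For NME1 and NME2, neighbours on chromosome 17, most counts were assigned to the readthrough gene NME1-NME2, which held 86720 counts over the 6 libraries against 39090 for NME1 and 19938 for NME2. The values of NME1 (log2 change 0.29 ± 0.29) and NME2 (-0.47 ± 0.62) are therefore uncertain, and NME2 ranged from 78.1 to 378 CPM within control alone. The sum of the 3 genes was 1661, 1122 and 1640 CPM in control and 1685, 1644 and 2233 CPM in CYT, where the groups overlapped. NME4 (mitochondrial) had a log2 change of -1.32 ± 0.47 that was not called (adjusted p = 0.062, edgeR) and was called with the replicate block (-1.18, adjusted p = 0.00963 by edgeR). NME6 (-0.81 ± 0.31) was not called, and was called without CYT 2 (-0.87, adjusted p = 0.045 by edgeR). The changes of NME7, CMPK1 (UMP-CMP kinase), GUK1 (guanylate kinase) and AK1 (cytosolic adenylate kinase) were -0.42 ± 0.39, 0.29 ± 0.45, 0.10 ± 0.37 and -0.31 ± 0.35.

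Of the 5 tested genes of nucleoside and base breakdown, 1, PNP, was called higher (20.0%, near the 15.7% of all tested genes, and so no result about the group), and the other 4 were not called. PNP, the purine nucleoside phosphorylase that releases hypoxanthine and guanine (chr14:20468954-20477094), measured 365, 362 and 412 CPM in control and 1073, 969 and 1029 CPM in CYT. The spread within each group was small, at an SD of 28.0 and 52.1 CPM, against a 2.70-fold difference (log2 change 1.43 ± 0.25, adjusted p = 0.00338 by edgeR). Of the 3 genes called higher, PNP was the 1 called in all 15 alternatives. ADA, which deaminates adenosine, had a log2 change of -0.59 ± 0.34. UPP1 and TYMP, the uridine and thymidine phosphorylases, had log2 changes of 0.08 ± 0.30 and -0.81 ± 0.59. DPYD, the first enzyme of pyrimidine breakdown and of fluorouracil clearance, measured 44.3, 64.7 and 41.5 CPM in control and 15.2, 42.9 and 16.9 CPM in CYT (log2 change -1.01 ± 0.44, adjusted p = 0.112 by edgeR). CYT 2 was the only library within the control range, and DPYD was called without it (-1.65, adjusted p = 0.00362 by edgeR) and with the replicate block (-1.14, adjusted p = 0.0101 by edgeR).

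Among the 8 nucleotidases and nucleotide hydrolases, 1 was called lower (12.5%, near the share of all tested genes, and so no result about the group) and 0 higher, and their median log2 change was -0.13. The count of those higher was 1 at an unadjusted p under 0.05 (NT5M) and 0 by DESeq2 and limma. NT5C, the cytosolic deoxynucleotidase, measured 68.3, 43.6 and 53.9 CPM in control and 19.4, 12.9 and 26.5 CPM in CYT. The log2 change of NT5C was -1.497 ± 0.355 (adjusted p = 0.0124, edgeR), and the call was lost without control 1 (adjusted p = 0.0511, edgeR). NT5C2, the cytosolic IMP and GMP nucleotidase known for thiopurine resistance, measured 40.9, 45.5 and 44.5 CPM in control and 22.8, 30.3 and 17.3 CPM in CYT, with no overlap. Its log2 change of -0.89 ± 0.31 missed the threshold (adjusted p = 0.0548, edgeR) and was called with the replicate block (-0.93, adjusted p = 0.0196 by edgeR) and without CYT 2 (-1.13, adjusted p = 0.0105 by edgeR).

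NT5E (CD73), the cell surface enzyme that makes adenosine, had the highest mean FPKM of the 8 in control, and measured 407, 571 and 492 CPM in control and 297, 731 and 345 CPM in CYT. The CYT libraries stood on both sides of the controls (log2 change -0.10 ± 0.37). NT5C3A and NT5C3B, which act on pyrimidine monophosphates and methylated GMP, had log2 changes of 0.01 ± 0.41 and -0.58 ± 0.29. NT5M, the mitochondrial deoxynucleotidase, stood at 2.18 ± 0.74 CPM in control and 4.96 ± 2.0 in CYT (SD, n = 3), a log2 change of 1.19 ± 0.47 that was called with the replicate block (1.16, adjusted p = 0.0384 by edgeR) and without CYT 2 (1.48, adjusted p = 0.0216 by edgeR), but not in the full fit (adjusted p = 0.0891, edgeR). SAMHD1, the dNTP hydrolase, had a log2 change of -0.17 ± 0.33. ITPA, which removes ITP, had one of 0.43 ± 0.34, and was called without CYT 2 (0.70, adjusted p = 0.0409 by edgeR).

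Pairs of related enzymes were compared through the log2 ratio of their counts within each library, which is not corrected for length, so only its shift between groups is read. Of 11 pairs, 3 had all CYT ratios above all control ratios and 1 had them below. The ratio of UCK1 to UCK2 moved furthest: it was -1.56, -1.02 and -1.24 in control and 0.99, 0.41 and 0.97 in CYT, a difference of 2.06. That of CTPS2 to CTPS1 was -3.02, -2.75 and -2.50 in control and -2.42, -2.23 and -2.19 in CYT, a difference of 0.48. The ratio of TK2 to TK1 was lower in CYT by 1.35 (-4.87, -4.65 and -3.63 against -5.42, -5.65 and -6.13). The ratio of PRPS2 to PRPS1 was higher by 1.09, with -3.25, -3.19 and -3.01 in control and -2.31, -1.06 and -2.82 in CYT. In an exact permutation test of 3 against 3 libraries (two-sided) each of these 4 pairs had p = 0.1, the smallest this design allows, and 0.275 after adjustment over the 11 pairs, so this test cannot pass 0.05 for any pair. The ratio of IMPDH1 to IMPDH2 differed by 0.24 (exact p = 0.3), and all 7 pairs outside these 4, this one among them, overlapped between groups. Within each replicate number, 5 of these 7 nevertheless had differences of the same sign in all 3 pairs of libraries, such as 1.65, 1.57 and 1.23 for AK4 to AK1, and so did each of the 4. With 3 numbered pairs a two-sided exact test cannot go below 0.25.

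**Figure D3:**
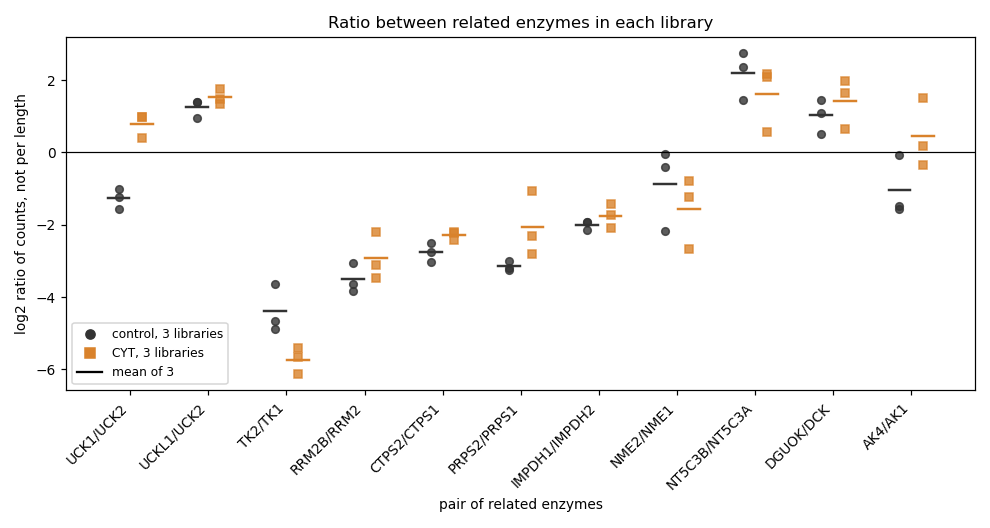
Log2 ratio of the counts of 11 pairs of related enzymes (not per length) in each control (circles) and CYT (squares) library, with lines at the group means. The UCK1/UCK2 ratio lies between -1.56 and -1.02 in control and between 0.41 and 0.99 in CYT, the widest shift shown.

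By deposited FPKM, the order of the enzymes differed between the groups. The lengths behind this FPKM exceed the whole locus for some enzymes, such as NT5C and NME3. Ranks between genes therefore depend on those lengths and are not levels per transcript length, while the change of a single gene between groups does not depend on them. In control the highest FPKM was that of TK1 (163 ± 29.3, SD, n = 3), followed by TYMS (77.6 ± 3.33) and IMPDH2 (75.7 ± 14.8), where the latter pair did not differ beyond its spread. In CYT, TK1 (306 ± 99.6) was followed by PNP (128 ± 7.25) and TYMS (103 ± 15.1). IMPDH2 went from rank 3 of 57 to rank 18, at 16.2 ± 1.74 FPKM, and PNP from rank 11 to rank 2. PFAS went from rank 39 to rank 54 (5.77 ± 1.66 to 0.69 ± 0.21 FPKM), and DHODH from rank 52 to rank 57 (1.94 ± 0.96 to 0.26 ± 0.07 FPKM), below CDA.

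The library CYT 2 stood apart from the other CYT libraries in a way that followed base composition. Over the 56 tested enzymes, the difference in log2 CPM between CYT 2 and the mean of CYT 1 and CYT 3 had a correlation of -0.885 with the GC content of the transcripts, and over the 15542 tested genes with a GC value one of -0.745. For control 2 against the other controls the correlations were -0.625 and -0.519. These are descriptions across genes that share the same libraries. The extremes among the enzymes were TYMP (-2.46) and NME3 (-1.98), both rich in GC, and PRPS2 (2.05) and CMPK1 (1.48). The median GC content was 53.0% in the enzymes called lower, 45.1% in those called higher and 48.4% in those not called, against 52.2%, 49.5% and 48.7% over all tested genes. A correction for GC content and length, chosen after the data were seen, gave 23 enzymes lower and 7 higher, which included all 15 and all 3 of those called without it. Calls over all tested genes rose along with them, to 23.1% lower and 23.7% higher. The enzymes added were DCK, DPYD, GART, NME4, NME6, NT5C2, NT5C3B and RRM2 as lower and NT5M, PRPS2, TK1 and UCK1 as higher. For UCK1 the corrected log2 change was 0.90 (adjusted p = 0.00726, edgeR).

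**Figure D4:**
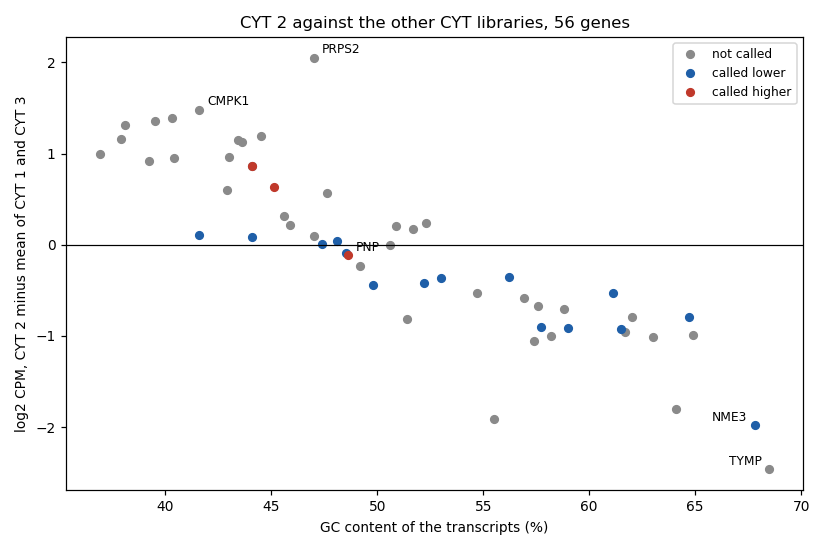
Difference in log2 CPM between CYT 2 and the mean of CYT 1 and CYT 3 (vertical axis) against the GC content of the transcripts (horizontal axis, %) for the 56 tested enzymes, coloured by call. Genes low in GC lie above 0 and genes high in GC below, from 2.05 for PRPS2 to -2.46 for TYMP.

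The other genes of these pathways were counted from a separate list. Of 61 in the table, 40 were tested, with 5 called lower (12.5%), 2 higher (5.0%) and a median log2 change of -0.155. The share called lower is close to the 12.9% of all tested genes, and the share called higher is below the 15.7%, so the count lower is no result about the list. Those called lower included the equilibrative nucleoside transporters SLC29A1 (-1.27 ± 0.34) and SLC29A2 (-1.32 ± 0.44), which bring nucleosides and their drug analogues into the cell. GMPR, the GMP reductase, had a log2 change of -1.22 ± 0.30, AK6 one of -1.39 ± 0.46 and ENPP1, an ectonucleotidase, one of -1.48 ± 0.40. The purine genes ADAL (1.96 ± 0.45) and LACC1 (2.05 ± 0.46) were called higher. MTAP, which recycles methylthioadenosine to adenine and lies beside CDKN2A, had at most 3 counts in any library. The 25 replication genes, by comparison, had 3 called lower and 3 higher (12% each, near the shares of all tested genes and so no result about that list), with a median log2 change of -0.14.

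Promoter windows from RefSeq (GRCh38.p14, 250 bases before to 50 after the start) matched 54 of the 57 enzymes, without ADSL, IMPDH2 and RRM2B. They were searched on both strands for the E-box CACGTG, a site of basic helix-loop-helix factors such as those of the MYC family, and for the E2F-type sites TTTGGCGC, TTTCGCGC, TTTCCCGC and TTTGCCGC. No E-box match overlapped an E2F match. The RefSeq start lay within 250 bases of the gene's start in the deposited table for 36 of the 54 enzymes and 9 of the 13 called lower. It lay further away for the other 18, up to 25234 bases for PAICS and 39485 for NT5C2, so a window without a match does not cover the deposited start of all genes. An E-box was held by 7.26% of all 35116 windows, by 10.2% of the windows of tested genes and by 11.5% of those of all genes called lower. Among the enzymes it was in 7 of 54 windows, 3 of the 13 called lower (DHODH, ATIC and UCKL1), 1 of the 3 called higher (AK4) and 3 of the 37 not called (PPAT, DCK and NME1). An E2F-type site was held by 3.31% of all windows and 5.46% of those of tested genes, and by 5 of the 54 enzymes (PRPS2, TYMS, DCK, NME6 and CDA), with 0 of the 13 called lower.

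The matches are shown with 12 bases on each side, on the strand of the gene, to set side by side the motif in genes that fell, rose or were not called. The E-box is in capitals and positions count from the RefSeq start. DHODH (-159 to -154) is at chr16:72008573-72008602 on the plus strand, ATIC (-46 to -41 and 30 to 35) at chr2:215312001-215312030 and chr2:215312076-215312105 on the plus strand, UCKL1 (-233 to -228) at chr20:63956632-63956661 on the minus strand, AK4 (-93 to -88) at chr1:65147447-65147476 on the plus strand, PPAT (-182 to -177) at chr4:56435780-56435809 on the minus strand and DCK (-116 to -111) at chr4:70993521-70993550 on the plus strand. The RefSeq start lies 156 bases from the gene's start in the deposited table for DHODH, 242 for ATIC and 1111 for DCK, and within 3 bases for UCKL1, AK4 and PPAT, so the sites of the former lie within or at the edge of the gene as deposited. The match of NME1 (35 to 40) is too near the end of its window to be shown.
DHODH: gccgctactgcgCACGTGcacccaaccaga
ATIC upstream: gggccggcgggcCACGTGataagcccggaa
ATIC downstream: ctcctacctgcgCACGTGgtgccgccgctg
UCKL1: gggccctccaggCACGTGgcggaggctgcc
AK4: ggtcgcagggagCACGTGggccaggcaggc
PPAT: aacggagatttcCACGTGcagcaaatacag
DCK: cgccccggccttCACGTGacctggcgtgcg
These matches are descriptions of letters in the windows, and binding was not measured.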

How the data were processed

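Total RNA of MDA-MB-231-DR cells, 3 control and 3 CYT samples, was made into mRNA libraries and sequenced on an Illumina NovaSeq instrument. Per the methods, the authors removed low-quality, adapter and ribosomal reads and used Hisat2 for alignment. The submitters' processing notes name the hg38 build and FastQC 0.12.1. The deposited table holds whole-number read counts per gene, whose counting program, annotation and strand setting are not given in the sources used here. The methods name Stringtie for the FPKM values, and how the deposited ones were made was not checked beyond the following comparison. Count and FPKM implied the same gene length in all libraries to within 0.0214%. That length exceeded the whole locus for some enzymes, NT5C and NME3 among them, so FPKM is not a level per transcript length. The loci of 53 of the 57 enzymes were those of GENCODE 29. No per-sample column was left unmapped (0 of 12).

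Counts were tested with edgeR 4.0.16 in R 4.3.3 (quasi-likelihood test, TMM scaling, filterByExpr with a minimum count of 10, 15572 genes, Benjamini-Hochberg adjustment over all of them, call at 0.05). The fold criterion of the study, a log2 change over 1, was applied only as an alternative. The biological coefficient of variation was 37.5%. Depth of 13056270 to 17770102 counts per library sets the precision, and changes of genes with few counts are the least certain. Library pairs of the same group differed by more than sampling noise (chi-square per gene of 25.0 to 153), so all 6 libraries were kept apart. Alternatives were DESeq2 1.42.0, limma 3.58.1 on log2(FPKM + 1) and log2(FPKM + 0.1), upper-quartile scaling, each library left out, no filter on low counts, a filter at a mean of 5 CPM, and the replicate number as a block. A correction for transcript GC content and length was added after the data were seen. Same-numbered libraries, whose numbers come from the sample labels, deviated together (correlations of 0.188, 0.458 and 0.124), each over 0.1, which was taken as pairing. Differently numbered pairs across the groups reached from -0.367 to 0.303. The latter, for control 1 with CYT 3, was above the 0.188 and 0.124 of the libraries numbered 1 and 3. The labels do not say that equal numbers are pairs, so the pairing is uncertain. The reported calls have no block, and the paired fit is an alternative. Ratios of related enzymes were taken on counts plus 0.5 and tested by exact permutation. On simulated counts with 200 of 15572 genes changed by 2 on the log2 scale, edgeR recovered 107 to 123 of them, with 5.0% to 7.56% of its calls false. With the block it recovered 69 to 119 (4.94% to 15.0% false), and DESeq2 recovered 144 to 153 (16.1% to 23.4% false). The simulation changed far fewer genes than the 4451 called in the data and held no effect of pairing or GC content. Its rates are therefore not those of the reported or the paired fit.

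The members and lists were chosen with earlier results of these data known. All 57 enzymes are named with a log2 change or counts. Values per library are given for the called enzymes, the uridine kinases and enzymes of pairs whose ratios do not overlap, and for some others chosen after their values were seen.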

Additional observations from a re-analysis of the deposited data

How the results depend on the processing

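Of the 15 enzymes called lower, 10 were called in all 15 alternatives, and of the 3 called higher, 1 was (PNP). All 18 kept their direction, and a log2 change over 1 as a second criterion left 14 and 2. All genes called numbered 4451, 2859 under the filter at a mean of 5 CPM, 2891 to 5752 with a library left out, 6209 with the replicate block, 7271 with the GC and length correction and 7079 with that correction and the block. Enzymes called lower numbered 23 with the GC and length correction. Enzymes called higher numbered 5 with DESeq2, 5 with upper-quartile scaling, 5 with the replicate block, 1 to 6 with a library left out, 7 with the GC and length correction and 7 with that and the block. The shares of all tested genes called higher were 18.8%, 18.5%, 20.0%, 10.3% to 18.6%, 23.7% and 23.0% in the same order, against 15.7% in the reported fit. Salvage enzymes called lower numbered 1 to 3 with a library left out. Nucleotidases called lower numbered 2 with DESeq2, 2 with the replicate block, 0 to 2 with a library left out, 3 with the GC and length correction and 3 with that and the block. The shares of all tested genes called lower were 15.1% with DESeq2, 19.8% with the replicate block and 7.36% to 17.0% with a library left out. They were 23.1% with the GC and length correction and 22.6% with that and the block, against 12.9% in the reported fit.

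Sign changed only in enzymes that were not called. RRM2B (log2 change) was -0.0454 with no filter, -0.0393 with limma on log2(FPKM + 0.1), -0.0588 with the replicate block, -0.0344 with the GC and length correction and -0.0797 with that and the block. NT5C3A was -0.0829 with no filter, -0.00978 with the replicate block, -0.0261 with the correction and -0.0226 with that and the block. DGUOK was 0.0778 with upper-quartile scaling and 0.0285 under the filter at 5 CPM, and NT5E 0.0496 and 0.00158. With a library left out, log2 changes ranged from -0.116 to 0.285 for PRPS1, from -0.772 to 0.0668 for PPAT, from -0.55 to 0.40 for RRM2B, from -0.0938 to 0.362 for DCTD, from -0.17 to 0.00313 for DGUOK, from -0.14 to 0.47 for HPRT1, from -0.61 to 0.0459 for APRT, from -0.39 to 0.59 for CMPK1, from -0.15 to 0.36 for GUK1, from -0.0617 to 0.241 for UPP1, from -0.62 to 0.13 for NT5E and from -0.43 to 0.33 for NT5C3A. The cause was not tested. Upper-quartile scaling moved the median log2 change of all genes to 0.15. Added to the fit without the GC and length correction, the block changed no enzyme's call beyond those given with each gene. Added to the corrected fit, it ended the calls of DCK (adjusted p = 0.0359 to 0.0512 by edgeR) and NME4 (0.0463 to 0.0944).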

Other observations

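Summed over roles, the level of the synthesis genes was lower and that of the breakdown genes higher in every CYT library than in every control library. The 23 synthesis genes added up to 3731, 3449 and 3365 CPM in control and 2155, 2779 and 2103 CPM in CYT. The 6 breakdown genes added up to 554, 581 and 577 CPM in control and 1242, 1107 and 1198 CPM in CYT, most of it PNP. Within synthesis the 7 deoxynucleotide genes overlapped between groups, at 1179, 1195 and 1102 CPM against 1125, 1490 and 1128 CPM. Without PNP the 5 other breakdown genes summed to 189, 219.5 and 165 CPM in control and 169, 137 and 169.6 CPM in CYT, where the groups overlapped, and 3 of the 5 tested breakdown genes were fitted lower. The 10 salvage genes (1776, 1477 and 1623 CPM against 1979, 1421 and 2485 CPM), the 10 genes of phosphate transfer and the 8 nucleotidases overlapped between groups. Over all 57 genes the sums were 8169, 7244 and 7532 CPM in control and 7006, 7278 and 7775 CPM in CYT, so the groups overlapped. These sums were not tested and weigh abundant genes most.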
